A study of Mus musculus with 13 samples.

Results

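Control oligodendrocyte precursor cells (OPCs) were compared with the immature oligodendrocytes (iOLs) that they become after 2 days in differentiation medium. The comparison took the 2 control OPC and the 2 control iOL libraries, 4 of the 9 RNA libraries and of the 13 samples of the series, chosen by their sample titles. All cells came from the brains of C57BL/6 mice. OPCs were isolated at postnatal day 7 (replicate 1) or day 6 (replicate 2) and, per the labels, grown with PDGF and NT-3. The iOL cultures, both from day 6 brains, were taken at day 2 after PDGF had been withdrawn and the thyroid hormone T3 added. The series was made to study conditional knockout (cKO) of Eed, a subunit of Polycomb repressive complex 2. The genotype entry reads EED cKO for the controls as well, so groups rest on the titles, and the allele, the Cre driver and any allele that the controls carry are not given in the sources used here. The 5 libraries of Eed cKO cells (3 OPC, of which 2 from day 7 and 1 from day 6, and 2 iOL from day 6) entered the model and a single closing comparison. The labels do not say whether replicates were separate animals or cultures, so p-values measure only the spread between these libraries.

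OPCs are the dividing glial progenitors of the brain. PDGF, acting through the receptor PDGFRα and the ERK kinase cascade, keeps them in cycle, and its loss lets them leave the cell cycle. T3 binds nuclear receptors that switch from repressing to activating their targets. Cells then pass through a committed stage, marked by genes such as Enpp6 and Bcas1, before they load the transcripts of compact myelin and, later, those of mature oligodendrocytes.

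The count table held 13549 genes, and the totals were 17417529 and 19680398 counts in the OPC libraries and 17958893 and 17899327 in the iOL libraries. Values are given as CPM, read counts scaled to library size with edgeR's TMM factors, replicate 1 before replicate 2. The 4 libraries separated first by stage: the first principal component of log2 CPM held 83.1% of the variance, with the OPC libraries at -64.7 and -57.2 and the iOL libraries at 60.9 and 61.0. The second held 12.7% and set OPC replicate 1 (32.6) against OPC replicate 2 (-34.7), with both iOL libraries near 0. The OPC libraries thus differed from each other far more than the iOL libraries did. More than a 2-fold difference separated the OPC replicates in 8.22% of genes and the iOL replicates in 2.01%, and the chi-square per degree of freedom of their counts was 106 and 6.49. Because the control OPC replicates are of different postnatal days, the day and the library cannot be told apart within the controls. The day 6 comparison is the comparison without OPC replicate 1.

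OPC replicate 1 stood apart in several transcript classes. It held 3467 CPM of Mbp against 1119.5 in replicate 2, and 5379.9 and 154 CPM of Lars2. Mir6236, annotated as a miRNA gene on chromosome 9, was at 4456 and 51.7 CPM and the globin gene Hbb-b1 at 2877 and 562 CPM. In the 3 cKO OPC libraries, from day 6 and day 7, Lars2 was at 142 to 341 CPM. There Mir6236 was at 51 to 156 CPM and Hbb-b1 at 780 to 1044 CPM. OPC replicate 2 had more astrocyte marker RNA: the 28 measured astrocyte markers summed to 24340 CPM there, against 11410 in OPC replicate 1 and 11570 and 11530 in the iOL libraries. Of 23 microglia markers written, 4 are in the table, with a sum of 20.3 to 37.9 CPM per control library. Xist, transcribed from the inactive X chromosome of female cells, was at 1023 and 1414 CPM in the OPC libraries and 34.3 and 0.555 CPM in the iOL libraries with no overlap. Its log2 change of -6.13 ± 3.09 did not pass the test (edgeR adjusted p = 0.13), which does not show equal levels. Any difference in the sex of the cells between the stages was not tested and cannot be told apart from the change over 2 days. The part of these differences in the results below was not tested, and values without either OPC library stand beside the results that they move. Bulk RNA cannot tell fewer cells of a type from less RNA per cell. Eed was at 21.7 and 16.8 CPM in OPCs and 18 and 21.2 CPM in iOLs, and did not pass the test (log2 change 0.03 ± 0.18, edgeR adjusted p = 0.92).

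Transcripts of a large share of the measured genes differed between control OPCs and iOLs, more of them lower than higher in iOLs. In iOLs 2846 of 13549 genes were higher than in OPCs (21% of those tested) and 3424 lower (25.3%), 46.3% in all, by edgeR's quasi-likelihood test at a Benjamini-Hochberg adjusted p under 0.05. Changes beyond 2-fold were more often falls than rises: 1953 genes fell (14.4%) and 1075 rose (7.93%). Beyond 8-fold, 205 genes fell and 98 rose. The median log2 change over all genes was -0.059. All but 4 of the 6270 called genes had groups that did not overlap, and the 4 include Lars2 and Mir6236; no overlap was also seen without regard to the test in 34.3% of all genes (iOL above) and 37.6% (iOL below). Without OPC replicate 1, 5089 of them kept call and direction, without OPC replicate 2 it was 5581, and 4528 kept both without either in turn. The counts are also sensitive to the iOL libraries: without iOL replicate 1 the test called 1801 genes higher and 2256 lower, and without iOL replicate 2, 1784 and 2298.

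**Figure D1:**
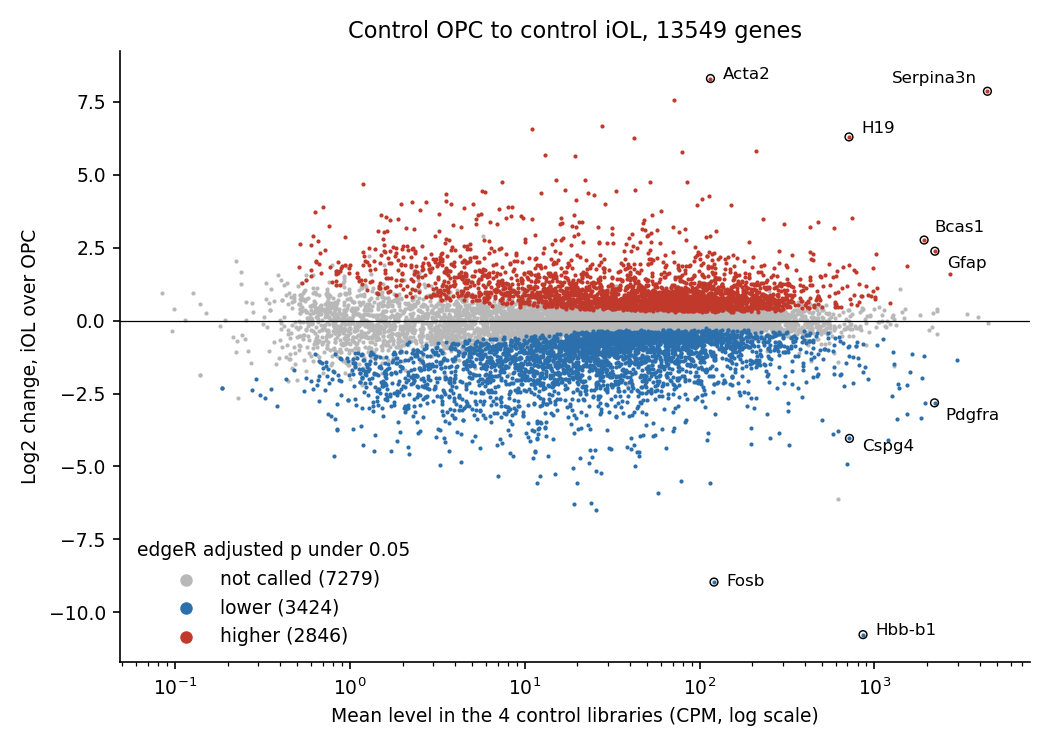
Log2 change from control OPC to control iOL (vertical axis) against the mean level of each gene in the 4 libraries (horizontal axis, CPM, log scale). Each point is 1 of 13549 genes, coloured where edgeR's adjusted p is under 0.05, with 2846 higher and 3424 lower, and named points show that the largest falls (Hbb-b1, Fosb) and rises (Acta2, Serpina3n) lie at very different levels.

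Precursor markers fell. Of 27 genes known as OPC markers 18 fell, each by more than 2-fold, 1 rose and 8 did not pass the test, with a median log2 change of -1.51. Over all genes 25.3% fell, 14.4% by more than 2-fold. Pdgfra (chromosome 5, 75151322 to 75198206, GRCm38), which encodes the PDGF receptor of OPCs, stood at 3297 and 4430.1 CPM in OPCs and 597 and 497 CPM in iOLs. It fell 7.06-fold (log2 change -2.82 ± 0.23, SE; edgeR adjusted p = 2.1e-05). Cspg4, encoding the proteoglycan NG2 by which OPCs are commonly stained, went from 1324 and 1388 CPM to 74.1 and 91 CPM, a 16.4-fold fall (log2 change -4.04 ± 0.22). Every OPC value of both genes was several times every iOL value. Genes of secreted C1q-like proteins fell as steeply: C1ql1 was at 449 and 279 CPM and then 31.6 and 25 CPM (log2 change -3.68 ± 0.24), and C1ql2 at 46.9 and 28.3 CPM and then 0.227 and 0.722 CPM (log2 change -6.28 ± 0.44). The proteoglycan genes Cspg5 (2679 and 2198 against 238 and 237 CPM) and Bcan (3550.5 and 3244 against 517 and 434 CPM) fell too, with log2 changes of -3.36 ± 0.17 and -2.84 ± 0.20.

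The markers did not move as a block. Sox6, a transcription factor gene of OPCs, was higher in iOLs (329.7 and 367 against 611 and 537 CPM, log2 change 0.72 ± 0.18, edgeR adjusted p = 0.01), a call that is lost without iOL replicate 1 (adjusted p = 0.078). Lhfpl3 (669 and 679.5 against 742 and 664 CPM) and the AMPA receptor subunit gene Gria3 did not pass the test, with log2 changes of 0.06 and -0.04. The matrix proteoglycan gene Vcan also missed it (511 and 824 against 633 and 546 CPM, log2 change -0.18), so among the proteoglycans of OPCs the change ran from the steep fall of Cspg4 to no call. Ptprz1, a receptor phosphatase gene, fell by 1.35 ± 0.33 on the log2 scale from 2580.1 and 5926 CPM to 1712 and 1634 CPM; the size was -1.82 without OPC replicate 1 and -0.62 without OPC replicate 2, and the call is lost without iOL replicate 1 (adjusted p = 0.055) or iOL replicate 2 (0.063).

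**Figure D2:**
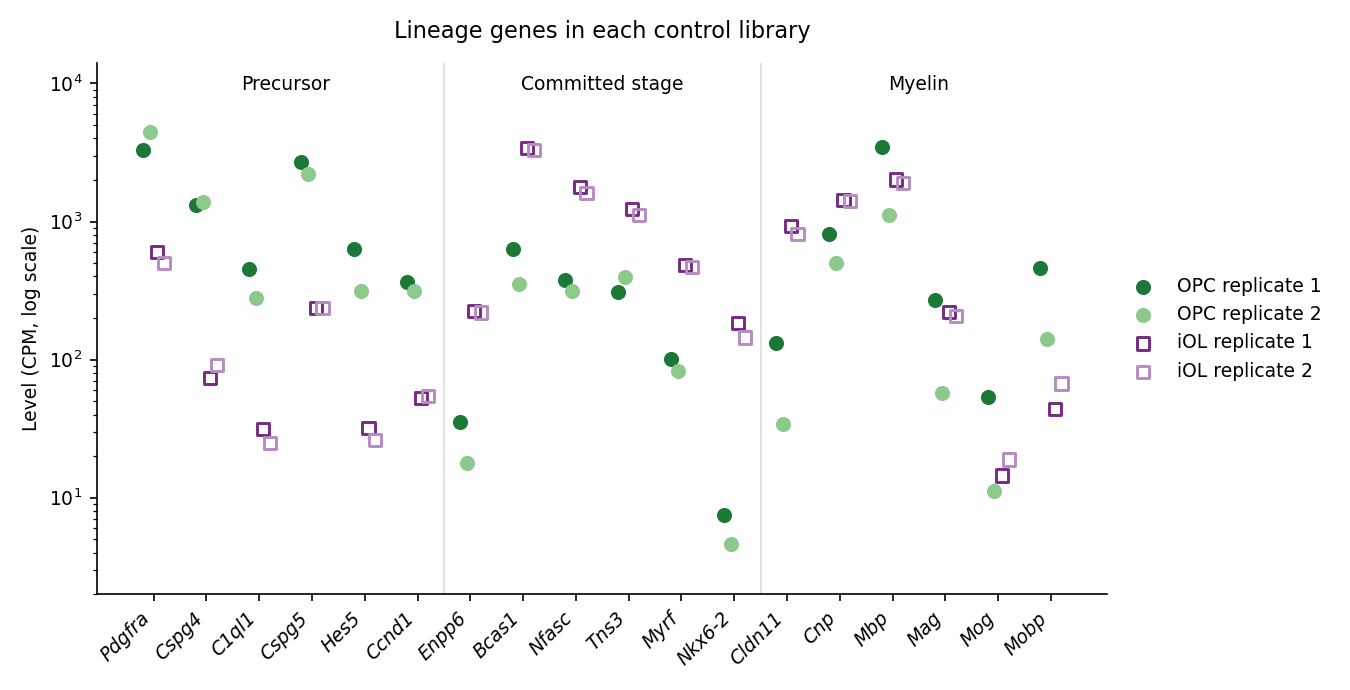
CPM (log scale) of named lineage genes in each of the 4 control libraries. Filled circles are the OPC libraries and open squares the iOL libraries, with replicate 1 dark and replicate 2 light, and the 6 precursor genes on the left fall while the committed-stage genes rise and Mbp, Mag and Mog have the iOL values between the OPC values. The genes shown are a chosen set. Of the 27 OPC markers 8 did not pass the test and 1 rose, and of the 28 committed-stage genes 6 did not pass and 2 fell.

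Below the receptor, most genes of the PDGF receptor and ERK feedback list fell. Of 27 measured 19 fell and 4 rose (25.3% and 21% over all genes), 4 had no call and the median log2 change was -1.39. The number that rose was 2 without OPC replicate 1 or without iOL replicate 2. The ETS factor genes Etv4 and Etv5, which ERK activity induces, went from 216 and 202 CPM to 12.8 and 11.5 CPM and from 185 and 258 CPM to 57.8 and 49.6 CPM, log2 changes of -4.10 ± 0.23 and -2.05 ± 0.22. Feedback inhibitors fell as well: Spry4 went from 131 and 170.3 CPM to 13.2 and 13.5 CPM (log2 change -3.49 ± 0.23), and the ERK phosphatase gene Dusp6 from 49.3 and 78.6 CPM to 25.4 and 22.6 CPM (-1.41 ± 0.25). OPC and iOL values did not overlap for these 4 genes. The ETS factor gene Etv1 fell by 1.85 ± 0.19, and among milder falls Spry1 fell by 0.72 ± 0.10 and Spry2 by 1.01 ± 0.24. Spred1 and Spred2 did not pass the test (log2 changes -0.40 and -0.46). The growth regulator gene Myc ran the other way. It rose from 32.2 and 31.6 CPM to 129.9 and 108 CPM (log2 change 1.90 ± 0.14, edgeR adjusted p = 1.3e-05), while its relative Mycn fell from 16.9 and 19.4 CPM to 8.46 and 8.77 CPM (log2 change -1.07 ± 0.18).

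Immediate early genes, transcription factor genes that respond to growth factors within minutes, had the lowest median of any list with more than 1 measured member. Of 22 measured, 20 fell (25.3% over all genes), Nr4a3 rose and Homer1 did not pass. The median log2 change was -3.08 against -0.059 over all genes. Fosb (chromosome 7, 19302696 to 19310118) dropped from 219 and 264 CPM to 0.284 and 0.666 CPM, a log2 change of -8.96 ± 0.44 (edgeR adjusted p = 2.9e-06). Fos was at 722 and 1597 CPM in OPCs and 84.6 and 84.6 CPM in iOLs, a 13.7-fold fall. Jun was at 1132 and 1047 CPM and then 72 and 73.7 CPM, and Egr1 at 379 and 862 CPM and then 31.6 and 32.7 CPM, falls of 15 and 19.3-fold. Fos and Egr1 were higher in OPC replicate 2 than in replicate 1, and each OPC value was still more than 8 times each iOL value. Nr4a3, an orphan nuclear receptor gene, was at 20.9 and 22.7 CPM and 34.9 and 34.6 CPM (log2 change 0.67 ± 0.18), and its call is lost without iOL replicate 1 (adjusted p = 0.063) or iOL replicate 2 (0.058).

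Some other transcripts that are known to follow cell isolation and stress fell with the immediate early genes, while the stress and dissociation list as a whole did not. The inducible heat-shock genes Hspa1a and Hspa1b, near-identical copies whose reads cannot be assigned with certainty, were at 28.5 and 65.1 CPM and 32.2 and 64.8 CPM in OPCs and at 2.44 and 1.22 CPM and 2.21 and 2.28 CPM in iOLs, log2 changes of -4.67 ± 0.63 and -4.43 ± 0.62. The stress factor gene Atf3 fell by 2.93 ± 0.28 on the log2 scale. Hbb-b1, a red blood cell transcript that shares reads with other globin copies, fell from 2877 and 562 CPM to 0.795 and 1.17 CPM (log2 change -10.76 ± 0.89). Of the 20 stress and dissociation genes 8 fell and 6 rose, against 25.3% and 21% of all genes, with a median log2 change of 0.033. The risers included Hsph1 (0.95), Hspd1 (0.74) and Hmox1 (1.03), and the constitutive Hspa8 and Hsp90ab1 did not pass the test (0.20 and 0.26). The part of cell handling in the fall of immediate early genes was not tested.

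Genes of DNA replication and of mitosis fell. Of 66 cell-cycle and DNA replication genes 56 fell, 50 of them by more than 2-fold, none rose and 10 did not pass the test. Over all genes 25.3% fell, 14.4% by more than 2-fold. The list's median log2 change was -1.48. The counts were 56 of 66 without OPC replicate 1 and 60 of 66 without OPC replicate 2. The mitotic phosphatase gene Cdc25c went from 45.7 and 29.6 CPM to 4.32 and 4.27 CPM, 8.74-fold lower (log2 change -3.13 ± 0.22, edgeR adjusted p = 1.0e-05). Cdc20, which activates the anaphase-promoting complex, fell 5.54-fold from 98.7 and 81.1 CPM to 17.9 and 14.5 CPM, and the mitotic ubiquitin-conjugating enzyme gene Ube2c 5.12-fold from 114 and 62.9 CPM to 18.2 and 16.3 CPM. The helicase gene Mcm5, used at replication origins, was at 128 and 121 CPM and then 36.5 and 30.9 CPM (3.7-fold lower), and the origin licensing gene Cdc6 at 15.8 and 14.9 CPM and then 6.64 and 7.16 CPM (2.22-fold lower). Cenpa, the histone variant gene of the centromere, fell from 102 and 69.2 CPM to 15.6 and 16.5 CPM (5.33-fold), and the mitotic cyclin gene Ccnb2 from 56.6 and 40.6 CPM to 11.4 and 9.77 CPM (4.59-fold). The lower of the 2 OPC values exceeded the higher iOL value in each of these 7 genes, and the transcripts remained measurable in iOLs.

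The G1 cyclins split. Ccnd1, the D cyclin that growth factors induce, fell from 365 and 315 CPM to 52.8 and 54.1 CPM (6.36-fold, log2 change -2.67 ± 0.14). Its relatives Ccnd2 (159.6 and 279 against 229 and 186 CPM) and Ccnd3 (172 and 150.1 against 189 and 188 CPM) did not pass the test, with log2 changes of -0.08 and 0.23. Mki67, the gene of the Ki-67 proliferation antigen, missed it too. Its OPC values were 251 and 126 CPM and its iOL values 114 and 99.6 CPM, so that the log2 change was -0.24 without OPC replicate 1 and -1.24 without OPC replicate 2 (edgeR adjusted p = 0.61 and 0.017).

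The promoters of these genes are shown because the list fell together. RefSeq promoters of the GRCm38.p6 build were searched over the 250 bases before each start on both strands, and 51 of the 66 genes had 58 of them. The cell-cycle homology region TTTGAA was in 19% of these and in 10.2% of the promoters of all measured genes. The NF-Y box CCAAT was in 69% against 35.2%, and an E2F site (TTTGGCGC, TTTCCCGC, TTTCGCGC or TTTGCCGC) in 17.2% against 3.19%. Among promoters of all genes called lower the shares were 11.1%, 35.2% and 3.44%, close to those of all measured genes. The stretches below end at the base before the start of transcription; capitals mark TTTGAA and CCAAT in Cdc20 (chr4:118437344-118437443, minus strand), Ube2c (chr2:164769819-164769928, plus strand) and Ccnb2 (chr9:70421555-70421734, minus strand), E2F sites and CCAAT in Mcm5 (chr8:75109339-75109508, plus strand) and the E2F site in Cdc6 (chr11:98908001-98908150, plus strand), each on either strand. In Mcm5, 2 E2F matches on opposite strands overlap. A match describes letters and is not evidence of binding.
Cdc20: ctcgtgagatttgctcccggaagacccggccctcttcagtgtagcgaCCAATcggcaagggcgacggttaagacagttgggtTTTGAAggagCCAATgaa
Ube2c: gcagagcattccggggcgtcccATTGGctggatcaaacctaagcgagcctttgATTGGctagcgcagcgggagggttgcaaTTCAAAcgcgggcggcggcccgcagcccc
Ccnb2: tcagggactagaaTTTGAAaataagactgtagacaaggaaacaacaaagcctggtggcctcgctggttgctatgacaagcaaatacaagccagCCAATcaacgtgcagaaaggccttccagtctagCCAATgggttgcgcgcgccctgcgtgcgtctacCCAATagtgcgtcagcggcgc
Mcm5: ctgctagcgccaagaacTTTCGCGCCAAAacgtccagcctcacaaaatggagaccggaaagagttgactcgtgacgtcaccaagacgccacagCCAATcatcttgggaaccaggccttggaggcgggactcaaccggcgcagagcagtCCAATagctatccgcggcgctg
Cdc6: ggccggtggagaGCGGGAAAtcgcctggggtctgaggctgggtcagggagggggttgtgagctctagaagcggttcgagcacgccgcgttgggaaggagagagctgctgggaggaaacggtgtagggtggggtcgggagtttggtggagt

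Inhibitors of the cycle moved both ways. Of 26 cell-cycle exit genes 7 rose and 10 fell, against 21% and 25.3% of all genes. Cdkn1a, encoding the p53-induced inhibitor p21, was at 7.62 and 5.05 CPM in OPCs and 41.1 and 72.5 CPM in iOLs (8.99-fold higher, log2 change 3.17 ± 0.29), and Cdkn1c, encoding p57, at 66.5 and 31.2 CPM and then 137 and 124 CPM (2.68-fold higher). Ccng1, a p53 target gene, rose from 34 and 40.2 CPM to 161 and 220.3 CPM, and Trp53inp1 and Mdm2, also p53 targets, rose with log2 changes of 1.52 and 0.92. Cdkn1b, encoding p27, did not pass the test (104 and 95.8 against 77 and 71.1 CPM, log2 change -0.44), and Cdkn2c, encoding the inhibitor p18, fell by 1.91 ± 0.18. The antiproliferative genes Btg1 and Btg2, the latter a p53 target too, fell, with log2 changes of -2.22 ± 0.16 and -3.04 ± 0.39.

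**Figure D3:**
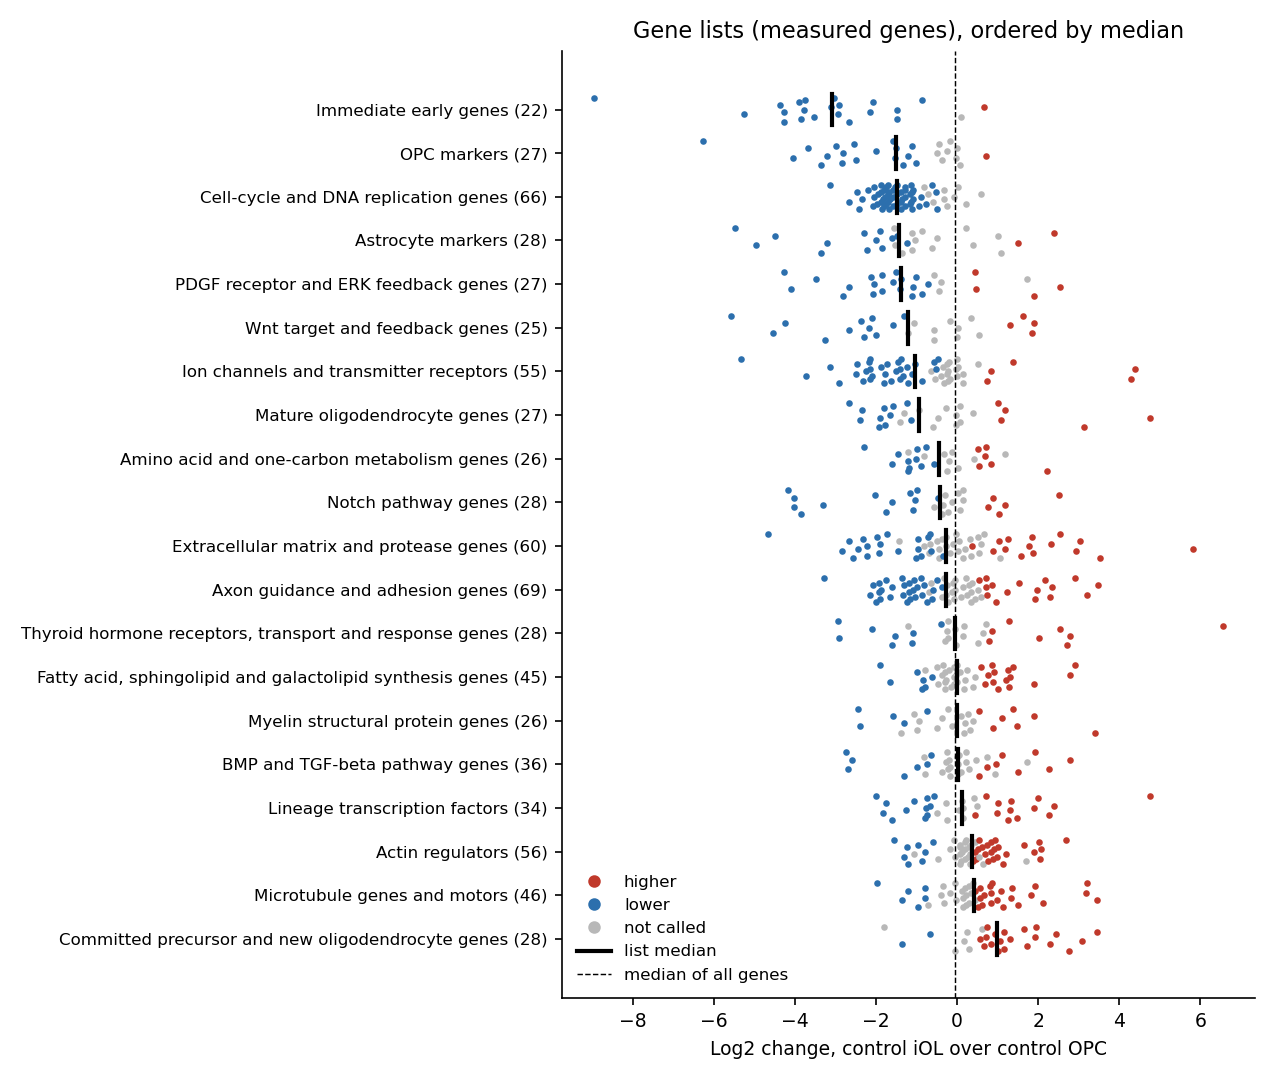
Log2 change of every measured member of 20 gene lists from control OPC to control iOL, with 1 point per gene and a bar at each list's median. Coloured points passed edgeR's test at an adjusted p under 0.05 and grey points did not, and the immediate early (median -3.08), OPC marker (-1.51) and cell-cycle (-1.48) lists lie farthest below the median of all genes (-0.059, dashed line).

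Genes of the committed and newly formed oligodendrocyte rose. Of 28 measured 20 rose, 14 of them by more than 2-fold, against 21% and 7.93% of all genes, and 2 fell (1 without OPC replicate 1 or either iOL library), with a median log2 change of 0.98. Enpp6, a choline phosphodiesterase gene used to find newly forming oligodendrocytes, was at 35.3 and 17.8 CPM in OPCs and 226 and 219 CPM in iOLs (8.4-fold, log2 change 3.07 ± 0.57, edgeR adjusted p = 0.002). Bcas1, a marker of early myelinating cells, went from 634 and 355 CPM to 3430.2 and 3273 CPM (6.78-fold). The cell adhesion gene Nfasc went from 376 and 313 CPM to 1773 and 1604 CPM (4.9-fold) and the focal adhesion gene Tns3, a marker of cells about to differentiate, from 309 and 396 CPM to 1227 and 1109 CPM (3.31-fold). In all 4 genes the lowest iOL value was more than 2 times the highest OPC value. Kif19a (3.45), Cnksr3 (2.44) and Bmp4 (1.93) rose too. Gpr17, a receptor gene typical of committed precursors, was at 2922 and 3316 CPM in OPCs and 3819.8 and 3508 CPM in iOLs and did not pass the test (log2 change 0.23 ± 0.20, edgeR adjusted p = 0.37), and nor did the sialidase gene Neu4 (0.16). Sema5b, a semaphorin gene, fell by 1.35 ± 0.14.

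Transcription factors of the lineage divided into rising and falling sets, 13 and 12 of 34, against 21% and 25.3% of all genes. The number falling was 6 without iOL replicate 1 and 7 without iOL replicate 2. Nkx6-2, a homeobox gene of differentiating oligodendrocytes, rose from 7.5 and 4.58 CPM to 183 and 145 CPM (27.2-fold, log2 change 4.77 ± 0.28, edgeR adjusted p = 5.0e-06). Myrf, the master regulator of myelin genes, rose from 101 and 82.1 CPM to 485 and 469 CPM (5.22-fold), and Zeb2, which represses inhibitors of differentiation, from 98.6 and 135 CPM to 597 and 523 CPM (4.8-fold). Zfp488, Nkx2-2 and Tcf7l2 rose by 1.48 ± 0.17, 1.32 ± 0.25 and 1.31 ± 0.22. Among the falling factors Sox9, which progenitors and astrocytes share, went from 144 and 162 CPM to 45.6 and 55.6 CPM (log2 change -1.60 ± 0.15), Sox3 from 89.6 and 51.3 CPM to 31.5 and 27.2 CPM (-1.26 ± 0.28, and -0.81 without OPC replicate 1) and Prrx1 from 41.4 and 58.3 CPM to 12.8 and 15.3 CPM (-1.83 ± 0.18). The founder factors of the lineage parted. Olig1 fell from 2844 and 2102 CPM to 769 and 702 CPM (3.36-fold), whereas Olig2 (531 and 529 against 444 and 448 CPM) and Sox10 (792 and 657 against 1009.6 and 924 CPM) did not pass the test (log2 changes -0.25 and 0.42).

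Myelin genes did not rise as a list. Of 26 measured 7 rose, 5 fell and 14 did not pass, not far from the 21% higher and 25.3% lower over all genes. The median log2 change was -0.013. The number that fell was 3 without OPC replicate 1 or iOL replicate 1 and 8 without OPC replicate 2, and the median was 0.52 without OPC replicate 1 and -0.42 without OPC replicate 2. The tight junction gene Cldn11 was highest among the risers, from 131 and 34.3 CPM in OPCs to 925 and 812 CPM in iOLs (10.5-fold, log2 change 3.39 ± 0.60, edgeR adjusted p = 0.0016). Cd9, a tetraspanin gene, rose from 670.1 and 639.8 CPM to 2522 and 2316 CPM, Ugt8a, which makes the myelin lipid galactosylceramide, from 155 and 114 CPM to 359.6 and 340.2 CPM, and Cnp, an early myelin enzyme gene, from 815 and 501 CPM to 1432 and 1409 CPM, by 3.69, 2.6 and 2.16-fold. Other members of the list fell. Mobp, a compact myelin gene, was at 464 and 142 CPM and then 44 and 67.1 CPM, a log2 change of -2.45 ± 0.63. The call is lost without OPC replicate 1 (log2 change -1.35, adjusted p = 0.095) and without iOL replicate 1 (adjusted p = 0.085). The plasmolipin gene Pllp fell from 451 and 280.1 CPM to 133 and 162 CPM (log2 change -1.31 ± 0.26) and the connexin gene Gjb1 from 30.0 and 19.4 CPM to 3.75 and 5.55 CPM (-2.40 ± 0.27).

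For Mbp, Mag and Mog, widely used markers of myelin, the direction rested on which OPC library was taken. Mbp, myelin basic protein, was at 3467 and 1119.5 CPM in OPCs and 2015 and 1913 CPM in iOLs, so that the iOL values lay between the OPC values. Mag, an adhesion molecule of inner myelin, was at 271 and 57.7 against 221 and 206 CPM and Mog, a protein of outer myelin, at 53.3 and 11.2 against 14.5 and 18.9 CPM. Their groups overlapped in every case, and none passed the test. Without OPC replicate 1 the log2 changes were 0.81 for Mbp, 1.89 for Mag and 0.57 for Mog. Without OPC replicate 2 they were -0.82, -0.34 and -1.68. None of the 6 values passed the test, with edgeR adjusted p from 0.068 to 0.7. The median of the 26 genes between the OPC replicates was a log2 difference of 0.64, replicate 1 over replicate 2.

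**Figure D4:**
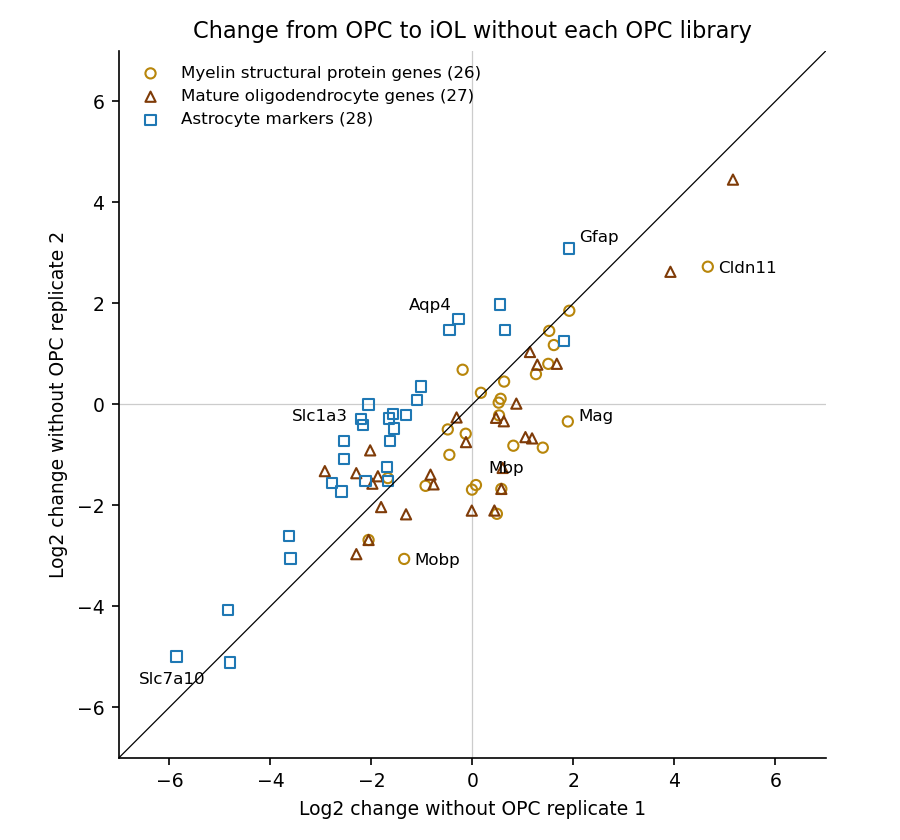
Log2 change from OPC to iOL of the 26 myelin, 27 mature oligodendrocyte and 28 astrocyte genes, computed without OPC replicate 1 (horizontal axis) and without OPC replicate 2 (vertical axis). The diagonal marks equal values; myelin genes such as Mbp and Mag lie below it, positive on the horizontal and negative on the vertical axis, and astrocyte genes such as Aqp4 lie above it.

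Of 27 genes of mature oligodendrocytes 11 fell and 5 rose, against 25.3% and 21% of all genes, with a median log2 change of -0.95. Without OPC replicate 1, 10 fell, 8 rose and the median was -0.012, and without iOL replicate 1, 7 fell. Efnb3, an ephrin gene, went from 121 and 103 CPM to 29.9 and 29.1 CPM (log2 change -1.93 ± 0.12), Ptgds, prostaglandin D synthase, from 17.2 and 10.8 CPM to 2.04 and 2.33 CPM (-2.67 ± 0.31), and the carbonic anhydrase gene Car2 from 53.7 and 103 CPM to 19 and 22.7 CPM (-1.91 ± 0.46; the call is lost without iOL replicate 1, adjusted p = 0.061). Risers besides Nkx6-2 were Tmem88b, from 24.1 and 9.79 CPM to 142 and 154 CPM (log2 change 3.14 ± 0.55), and, by smaller amounts, Cryab (1.09) and Rffl (1.02). The list's median was 0.68 on the log2 scale between the OPC replicates, replicate 1 the higher.

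Notch signalling holds precursors undifferentiated through the repressors Hes1 and Hes5. Both fell: Hes5 from 632 and 315 CPM to 32 and 26.3 CPM (16.2-fold, log2 change -4.02 ± 0.38, edgeR adjusted p = 4.6e-05) and Hes1 from 63.4 and 57.5 CPM to 5.45 and 6.77 CPM (9.88-fold). The Notch target and feedback gene Nrarp fell from 242 and 178 CPM to 14.9 and 14.3 CPM (14.4-fold). Mfng, whose glycosyltransferase modifies Notch receptors, fell from 7.67 and 5.69 CPM to 0.284 and 0.444 CPM and the ligand gene Dll3 from 90.3 and 62.5 CPM to 5.74 and 3.61 CPM, by 4.17 ± 0.34 and 4.03 ± 0.30 on the log2 scale. The atypical ligand gene Dlk1 rose from 1.29 and 1 CPM to 6.59 and 6.44 CPM (2.51 ± 0.25), and the receptor gene Notch1 (319 and 531 against 476 and 460.1 CPM) did not pass the test. In all 13 of 28 Notch pathway genes fell and 5 rose, against 25.3% and 21% of all genes. Not every Hes and Hey relative fell, since Hey2 rose from 9.61 and 9.95 CPM to 24.2 and 20.1 CPM (log2 change 1.18 ± 0.26) and Hey1 did not pass (-0.34). Of the 4 Id genes, inhibitors of differentiation that BMP induces, 3 did not pass the test and Id1 was called higher (45.1 and 68.3 against 129 and 101 CPM, 1.02 ± 0.34), a call lost without OPC replicate 1 (adjusted p = 0.17) or without either iOL library (adjusted p = 0.17 and 0.062 without replicates 1 and 2), and at 0.053 and 0.052 without either cKO iOL library.

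The Hes5 promoter is shown as that of the most lowered Hes gene. The stretch is chr4:154960683-154960922, plus strand (GRCm38.p6, RefSeq) and ends at the base before the start. Capitals mark the letters GTGGGAA, the core of the site of the Notch partner RBPJ, on either strand. They occur 2 times here and in 5.42% of the promoters of all measured genes, and they say nothing of binding in these cells.
Hes5: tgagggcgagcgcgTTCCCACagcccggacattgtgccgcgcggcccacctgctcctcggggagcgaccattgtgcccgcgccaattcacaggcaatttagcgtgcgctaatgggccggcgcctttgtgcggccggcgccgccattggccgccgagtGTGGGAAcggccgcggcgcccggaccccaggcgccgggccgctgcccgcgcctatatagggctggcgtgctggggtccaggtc

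Wnt feedback genes fell in larger number than they rose, 12 against 4 of 25 (25.3% and 21% over all genes), with a median log2 change of -1.21. Without OPC replicate 2, 7 rose and the median was -0.74. The ubiquitin ligase gene Rnf43, which removes Wnt receptors, went from 56.5 and 63.3 CPM to 5.96 and 6.5 CPM (log2 change -3.26 ± 0.14, edgeR adjusted p = 2.6e-06), Notum, a secreted enzyme that inactivates Wnt, from 1.82 and 2.68 CPM to 0.114 and 0.111 CPM (-4.25 ± 0.50) and the secreted antagonist Sfrp2 from 42.2 and 36.1 CPM to 0.795 and 0.833 CPM (-5.58 ± 0.20). Axin2, the common reporter of the pathway, did not pass the test (30.2 and 46.3 against 39.6 and 38.6 CPM, log2 change 0.03 ± 0.21). In the BMP and TGF-β list 8 of 36 rose and 7 fell, near the 21% and 25.3% of all genes; the number that rose was 5 without OPC replicate 1 or iOL replicate 1, 4 without iOL replicate 2 and 13 without OPC replicate 2. The ligand genes Bmp4 (26.4 and 15.9 against 80.5 and 80.7 CPM) and Bmp6 (1.29 and 1.68 against 6.82 and 13.7 CPM) rose, and the BMP antagonist Chrd fell from 33.7 and 36.7 CPM to 5.68 and 4.89 CPM (-2.73 ± 0.16).

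Of 28 thyroid hormone genes 8 rose, 8 fell and 12 were without a call, against 21% higher and 25.3% lower over all genes, and their median log2 change was -0.043. The direct T3 target genes Hr and Klf9 rose, Hr, a nuclear corepressor, from 55.7 and 46.5 CPM to 365 and 299 CPM (6.5-fold, log2 change 2.70 ± 0.15, edgeR adjusted p = 4.6e-06) and Klf9 from 21.4 and 27.4 CPM to 104 and 93.2 CPM (4.03-fold). Of the receptors, Thrb rose from 9.78 and 11.3 CPM to 26.6 and 24.4 CPM (2.42-fold) and Thra did not pass the test (537 and 472 against 496 and 494 CPM). Dio2 and Crym, which act on T3 itself, fell. Dio2, the deiodinase that makes T3, went from 32.3 and 60.1 CPM to 7.27 and 4.83 CPM (7.64-fold lower) and Crym, a cytosolic T3-binding protein gene, from 16.1 and 16.3 CPM to 1.93 and 2.33 CPM (7.58-fold lower).

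Among 35 genes of cholesterol synthesis and uptake 3 rose and 8 fell, against 21% and 25.3% of all genes. The number that rose was 5 without OPC replicate 2, 1 without iOL replicate 1 and 0 without iOL replicate 2. The synthesis enzyme gene Sqle, squalene epoxidase (313 and 322 against 352 and 378 CPM), did not pass the test (log2 change 0.20). Falling members included the lipid carrier gene Apoe, from 2739.8 and 4013 CPM to 294 and 367 CPM (10.2-fold, log2 change -3.35 ± 0.45), and the sterol exporter gene Abcg1, from 39 and 44.3 CPM to 9.43 and 6.66 CPM (5.18-fold). Apoe is also an astrocyte marker. Of 45 genes of fatty acid and sphingolipid synthesis 15 rose and 7 fell, with a median log2 change of -0.016. The risers included Elovl7, a fatty acid elongase gene, from 14.8 and 8.74 CPM to 87.6 and 88.2 CPM (7.49-fold), Gpd1, which makes the glycerol backbone of lipids, from 28.1 and 26.7 CPM to 103 and 100.4 CPM (3.71-fold), and Sgms2, a sphingomyelin synthase gene, from 2.05 and 3 CPM to 18.9 and 16.3 CPM (6.92-fold). Plpp3, a lipid phosphatase gene, fell from 471 and 1013 CPM to 199.7 and 200 CPM (3.71-fold; log2 change -1.89, and -1.24 without OPC replicate 2).

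Differentiating oligodendrocytes are known to extend many branched processes. Of 46 microtubule genes and motors 22 rose and 6 fell (2 and 3 fell without iOL replicates 1 and 2), and of 56 actin regulators 24 rose and 8 fell (median log2 changes 0.42 and 0.37). Over all genes 21% rose and 25.3% fell. Map1b, a microtubule-associated protein gene, was at 142 and 90.9 CPM in OPCs and 1093 and 1031 CPM in iOLs (9.11-fold higher, edgeR adjusted p = 1.9e-04). Map1a was at 149 and 179 CPM and then 779 and 637 CPM (4.31-fold) and the oligodendrocyte tubulin gene Tubb4a at 364 and 237 CPM and then 1169.6 and 1100.3 CPM (3.77-fold). Tubb6, a further tubulin gene, rose from 4.51 and 5.74 CPM to 43.4 and 50.9 CPM (9.17-fold), and the dynein chain gene Dync1i1 fell from 5.33 and 3.63 CPM to 1.08 and 1.17 CPM (3.97-fold). On the actin side Flna, filamin A, rose from 142 and 204 CPM to 612 and 834 CPM (4.19-fold), Fmnl2, a formin gene, from 76 and 122 CPM to 374 and 364 CPM (3.72-fold) and Myh9, non-muscle myosin, from 55.2 and 63.6 CPM to 164 and 208 CPM (3.13-fold). Gsn, the actin-severing gelsolin, fell by 1.23 ± 0.24 on the log2 scale, and by 0.77 without OPC replicate 1.

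Ion channels and transmitter receptors, by which OPCs respond to neurons, fell. Of 55 measured 32 fell and 5 rose (25.3% and 21% over all genes), with a median log2 change of -1.04. The muscarinic receptor gene Chrm1 went from 23.8 and 24.1 CPM to 0.625 and 0.555 CPM (log2 change -5.33 ± 0.28), the kainate receptor gene Grik1 from 53.9 and 54.8 CPM to 6.76 and 5.66 CPM (-3.13 ± 0.17) and the metabotropic glutamate receptor gene Grm3 from 49.7 and 176 CPM to 9.31 and 7.83 CPM (-3.72 ± 0.75). The potassium channel gene Kcna1 rose from 9.78 and 12.3 CPM to 249 and 181 CPM (19.5-fold, edgeR adjusted p = 8.2e-06) and Kcna5 from 1.11 and 1.16 CPM to 26.5 and 21.1 CPM (20.8-fold).

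Of 60 matrix genes 15 rose and 21 fell, and of 69 guidance and adhesion genes 16 rose and 30 fell. Over all genes 21% were higher and 25.3% lower. The matrix genes had a median log2 change of -0.28, which was -0.42 without OPC replicate 1 and 0.19 without OPC replicate 2. For the guidance and adhesion genes it was -0.27, and -0.53 and -0.11 without these libraries. Without iOL replicate 1 or 2 the medians were -0.13 and -0.34 for matrix genes and -0.34 and -0.25 for guidance and adhesion genes. Collagen genes Col20a1, from 8.2 and 6.53 CPM to 432 and 391 CPM, and Col11a1, from 112 and 124 CPM to 1520 and 1208 CPM, rose 55.9 and 11.5-fold. Fn1, fibronectin, rose from 9.78 and 23.7 CPM to 92.2 and 181 CPM (8.13-fold), and the hyaluronan link protein gene Hapln1 fell from 15.1 and 37.5 CPM to 0.795 and 1.28 CPM (25.2-fold). Of the guidance genes, the semaphorin receptor gene Plxnb3 rose from 89.1 and 79.4 CPM to 796 and 749.8 CPM (9.17-fold) and the semaphorin gene Sema3c from 2.34 and 1.32 CPM to 19.8 and 20.7 CPM (11.1-fold). Slit1, a repellent, fell from 28.2 and 36.1 CPM to 3.07 and 3.5 CPM (9.79-fold).

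Genes of the ribosome and of respiration showed fewer calls than the table as a whole, in which 21% of genes rose and 25.3% fell. Of 78 ribosomal protein genes, whose counts are uncertain because many pseudogenes resemble them, 4 fell and none rose, and 5 of 54 oxidative phosphorylation genes fell and 1 rose. The OPC libraries differed here by more than the stages: ribosomal protein transcripts summed to 37780 and 21470 CPM in OPCs and 23110 and 22070 CPM in iOLs. Without OPC replicate 1, 12 oxidative phosphorylation genes were called higher and 2 lower, and without OPC replicate 2 none higher and 38 lower. Leaving out any other library gave at most 2 higher and 3 lower. Of the ribosomal protein genes 4 were called higher and 1 lower without OPC replicate 1 (median log2 change 0.090), and 73 lower without OPC replicate 2. In amino acid metabolism 11 of 26 genes fell and 6 rose (3 without iOL replicate 2), among the falls the transporter gene Slc7a5, from 259 and 338 CPM to 91.6 and 103 CPM (3.06-fold), and the serine synthesis gene Phgdh, from 244 and 338 CPM to 99.2 and 112 CPM (2.75-fold). Of 30 ribosome biogenesis genes 8 rose (5 without iOL replicate 1), such as the helicase gene Ddx21 (0.77), and 2 fell (7 without OPC replicate 2). Of 15 iron handling genes 5 rose, with the transferrin receptor gene Tfrc at 55.4 and 63.1 CPM in OPCs and 92.2 and 150.2 CPM in iOLs (log2 change 1.03 ± 0.21, and 0.64 without iOL replicate 2).

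Of 48 chromatin regulator genes 16 fell and 8 rose, not far from the 25.3% and 21% of all genes, and only 7 and 3 without iOL replicate 1 and 8 and 4 without iOL replicate 2. The falls were led by genes of high-mobility-group and variant histone proteins that dividing cells express: Hmgb2 went from 173 and 107 CPM to 39 and 28.3 CPM (log2 change -2.05 ± 0.24), Hmga2 from 6.97 and 8.37 CPM to 1.42 and 1.78 CPM (-2.26 ± 0.29) and H2afz from 269.8 and 183 CPM to 87.9 and 75.7 CPM (-1.47 ± 0.18). Hmgn2, a nucleosome-binding protein gene, fell from 383 and 248 CPM to 119 and 102 CPM (-1.52 ± 0.19).

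The steepest rises included several secreted proteins. Serpina3n (chromosome 12, 104406646 to 104414334), a secreted inhibitor of serine proteases, was at 27.3 and 48.5 CPM in OPCs and 9399 and 8233 CPM in iOLs, 233-fold higher (log2 change 7.86 ± 0.46, edgeR adjusted p = 5.0e-06), and gained more reads than any other gene. The imprinted long noncoding RNA gene H19 rose from 24.7 and 11.3 CPM to 1412 and 1411 CPM (78.6-fold) and the intermediate filament gene Prph from 0.762 and 0.316 CPM to 52 and 57.3 CPM (102-fold). C1qtnf1, a secreted C1q-related gene, rose from 0.41 and 1.05 CPM to 161 and 125 CPM (log2 change 7.57 ± 0.31), and Clcf1, a cytokine gene of the CNTF family, from 0.351 and 0.684 CPM to 11.7 and 17 CPM (4.76 ± 0.40). The potassium channel gene Kcnh1 rose from 1.17 and 1 CPM to 93.8 and 72.7 CPM (76.4-fold). Each of these was at most 49 CPM in either control OPC library. Groups without overlap were a condition of the rule that named them. The cytokine response genes Stat3, from 227 and 250 CPM to 556 and 522 CPM (2.26-fold), and Socs2, from 6.03 and 8.63 CPM to 20.7 and 24.5 CPM (3.08-fold), rose as well. Over all genes 21% rose and 25.3% fell. In the interferon and cytokine list as a whole 4 of 22 rose and 8 fell (5 without iOL replicate 1).

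Contractile and vessel-associated genes were among the steepest rises, with Cspg4 and most other markers of those cells lower or not called. Acta2, smooth muscle actin, went from 1.11 and 0.368 CPM to 197 and 262 CPM (314-fold, log2 change 8.30 ± 0.39, edgeR adjusted p = 2.9e-06), and Tagln, transgelin, from 2.17 and 3.47 CPM to 131 and 179 CPM (54.5-fold). Myl9, a myosin light chain gene, rose from 6.21 and 8.05 CPM to 38.7 and 53 CPM (6.41-fold). Over all genes 21% rose and 25.3% fell. Of 19 measured pericyte and fibroblast markers 4 rose and 7 fell (4 fell without OPC replicate 2, and 2 rose and 2 fell without iOL replicate 2), and the pericyte marker genes Rgs5 (2.34 and 2.47 against 1.36 and 0.944 CPM) and Vtn (1.7 and 1.47 against 0.341 and 0.555 CPM) were at most 2.5 CPM in any library. In the endothelial list Kdr, a VEGF receptor gene, rose from 1.52 and 2.63 CPM to 39.8 and 34.8 CPM (17.7-fold) and Vwf from 15.1 and 12.6 CPM to 137 and 116 CPM (9.17-fold), whereas Egfl7 (1.87 and 1.79 against 2.16 and 2.28 CPM) and Eng (0.703 and 0.842 against 0.398 and 0.888 CPM) stayed low without a call. The markers summed to 102 and 88.7 CPM in OPCs and 225 and 198 CPM in iOLs for endothelium, and to 1524, 1776, 480 and 703 CPM for pericytes and fibroblasts. Cspg4, which OPCs share, made up most of the latter sum in OPCs (1324 and 1388 CPM) but not in iOLs (74.1 and 91 CPM).

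Of 28 astrocyte markers 13 fell, 2 rose (6 without OPC replicate 2) and 13 did not pass the test. Gfap, the astrocyte intermediate filament gene, was at 439 and 991 CPM in OPCs and 3778 and 3655 CPM in iOLs (5.2-fold higher, log2 change 2.38 ± 0.53, edgeR adjusted p = 0.0057). S100b rose from 158 and 107 CPM to 402 and 352 CPM (2.85-fold). Falling members included Slc7a10 (from 109 and 199 CPM to 2.44 and 4.39 CPM, log2 change -5.49 ± 0.53) and the neurotensin receptor gene Ntsr2 (from 62.1 and 105 CPM to 4.03 and 3.33 CPM, -4.50 ± 0.38). Aldh1l1 (263 and 593 against 276 and 278 CPM), the glutamate transporter gene Slc1a3 (876 and 2980.3 against 631 and 690.5 CPM) and the water channel gene Aqp4 (302 and 1181 against 811 and 1142 CPM) did not pass the test. For these 3 genes OPC replicate 2 was more than 2 times OPC replicate 1, and the log2 changes were -1.10, -2.17 and -0.28 without OPC replicate 1 and 0.08, -0.41 and 1.69 without OPC replicate 2. The list's median was -1.43, and it ran from -1.80 to -0.41 over the 4 pairs of 1 OPC and 1 iOL library. Over all genes 25.3% fell and 21% rose.

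Counted in reads, which scale with transcript length, the largest gains besides Serpina3n and Gfap were of Bcas1, Tnr, Cd9, H19, Nfasc, Col11a1, Dst and Map1b. Tnr, the matrix glycoprotein tenascin R, went from 1080.4 and 1619 CPM to 4173 and 3913 CPM (3-fold higher) and the cytoskeletal linker gene Dst from 391 and 479 CPM to 1554 and 1511 CPM (3.52-fold). Among the genes called lower with the largest losses of reads were Pdgfra, Apoe, Bcan, Ptprz1, Lars2, Sparcl1, Cspg5, Mir6236 and Cpe. For Lars2 and Mir6236 the loss was that of OPC replicate 1. Their iOL values were 224 and 381 and 92.5 and 172 CPM, and without OPC replicate 1 the log2 changes became 0.97 and 1.36, with no call (edgeR adjusted p = 0.15 and 0.11). Neither kept its call when any other library was left out, save OPC replicate 2. Sparcl1, a matrix gene that astrocytes also express, was at 1646 and 4322 CPM and 860.3 and 649 CPM, and its fall (-1.98 ± 0.55) is lost without OPC replicate 2 (adjusted p = 0.1), iOL replicate 1 (0.059) or iOL replicate 2 (0.10). Further genes with the steepest falls were Rasgrf1, a Ras exchange factor gene, from 52 and 49.4 CPM to 0.511 and 0.611 CPM (log2 change -6.48 ± 0.27), the somatostatin receptor gene Sstr1, from 36.1 and 58.2 CPM to 0.795 and 0.444 CPM (-6.24 ± 0.36), and the acid-sensing channel gene Asic4, from 137 and 90.0 CPM to 1.65 and 2.11 CPM (-5.91 ± 0.29).

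Differentiation was also measured in the Eed cKO libraries, which share no library with the controls. There 2505 genes rose (18.5%) and 2956 fell (21.8%). Genes that rose in both genotypes numbered 1750, which is 61.5% of those that rose in controls and 69.9% of those that rose in cKO cells, and 2284 fell in both (66.7% and 77.3%); 41 were called in opposite directions. A test of the difference itself called 248 of 13549 genes (1.83%), 128 with a higher (0.945%) and 120 with a lower change (0.886%) in cKO cells. The list medians in control and cKO cells were -1.51 and -1.05 for OPC markers, 0.98 and 0.12 for committed-stage genes and -1.48 and -0.90 for cell-cycle genes, and the difference passed the test for 3 of 27, 3 of 28 and 1 of 66 of their genes. Among genes named above, Pdgfra, Cspg4, Fosb and Serpina3n kept their direction, with log2 changes in cKO cells of -2.46, -3.57, -8.21 and 8.15. Ntsr2 fell less in cKO cells (log2 change -1.22, difference 3.28 ± 0.46, edgeR adjusted p = 0.016), and Crym, which fell in controls, rose there (log2 change 1.25, difference 4.17 ± 0.56, adjusted p = 0.015). C1qtnf1 rose less (4.04, difference -3.53 ± 0.37, adjusted p = 0.011), as did Clcf1 (1.67, difference -3.09 ± 0.50, adjusted p = 0.025), and Gjb1 fell further (-5.51, difference -3.10 ± 0.44, adjusted p = 0.016). C1qtnf1 lost its call only without iOL control replicate 1 (adjusted p = 0.058). The other 4 genes lost it without any of the 4 iOL libraries (adjusted p from 0.0525 to 0.119) and without cKO OPC replicate 2, and all but Crym also without cKO OPC replicate 1. Without 1 of the 9 libraries the number of genes called in this test ran from 0 to 1118 higher and from 2 to 1038 lower.

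**Figure D5:**
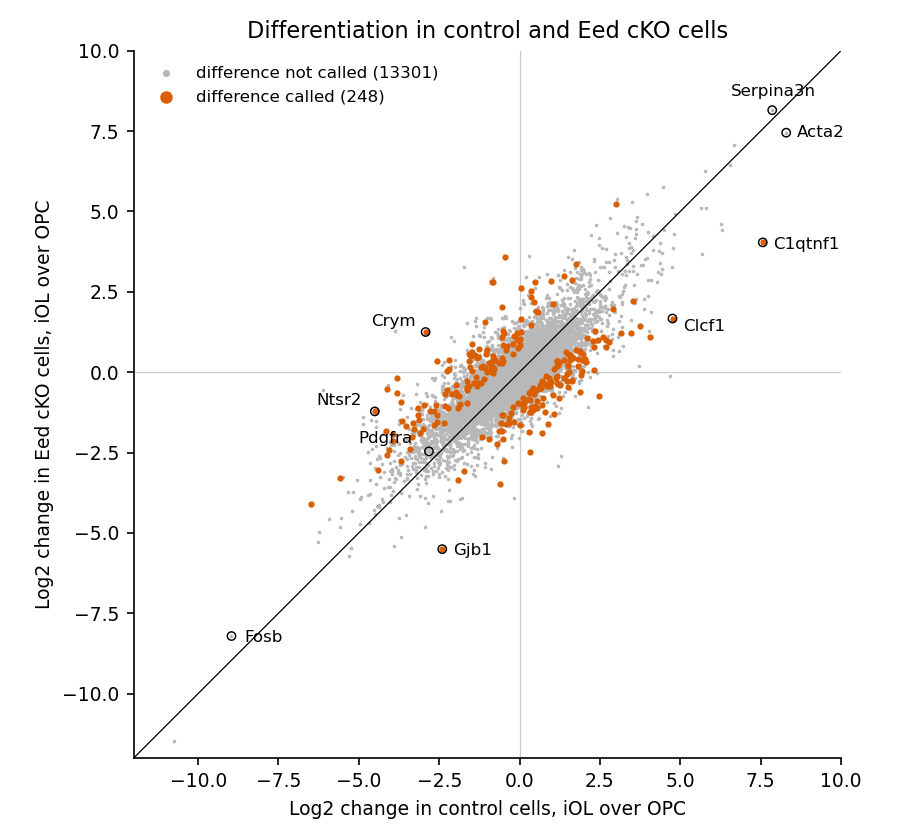
Log2 change on differentiation in control cells (horizontal axis) and in Eed cKO cells (vertical axis) for 13549 genes. Coloured points are the 248 genes whose difference passed edgeR's test, and genes such as Pdgfra, Fosb and Serpina3n lie in the quadrants of equal sign.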

How the data were processed

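RNA from OPC and iOL cultures was measured by RNA-seq. The authors deposited raw counts per gene for 9 libraries. The submitters' processing notes name cutadapt 1.14, STAR 2.6.0 and featureCounts of Subread 1.6.2 and the mouse build mm10, with no role or order. The annotation, the strand setting and the kit of each library are not stated in these sources, and so reads of antisense and overlapping genes cannot be told apart. A repeated header row was dropped. Every deposited gene has at least 10 counts in at least 4 libraries, so lower genes were not analysed.

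Counts were fitted with edgeR 4.0.16 (R 4.3.3): TMM factors, filterByExpr (which removed 0 genes), 4 group means over the 9 libraries, which share an estimate of the spread, and the quasi-likelihood test with Benjamini-Hochberg adjustment over 13549 genes at 0.05. CPM carry counting error, which at totals of 17417529 to 19680398 counts weighs most on genes of a few CPM or less. SE is the log2 change over the square root of F. DESeq2 1.42.0, limma 3.58.1 (voom), other scalings, filters, covariates and left-out libraries were alternatives. The procedure was tested on simulated counts. Replicate numbers were not used as pairs in the reported values. The deviations of same-numbered OPC and iOL libraries correlated at r = 0.043, a single value that cannot show whether they were paired.

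The comparison, the gene lists and the tests were chosen with earlier results of these data known, so no list is independent evidence. Genes named are the 15 largest changes each way at 5 CPM or more in the higher group without overlap, the 10 largest gains and losses of CPM, any member of the lineage, PDGF, thyroid and exit lists and of the lists of other cells and RNA quality, up to 6 called and 3 uncalled members of each other list, Eed, the 5 largest differences from cKO cells each way, and genes whose promoter is printed. Fos, Nr4a3 and Homer1 were named after their values were seen. Gene positions are from RefSeq (GRCm38), matched by symbol for 99.8% of genes. Some genes that this rule names are not reported here, and chromatin samples were not analysed here.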

Additional observations from a re-analysis of the deposited data

Results flagged for a closer look

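For 22 of the genes named above the change on differentiation differed between Eed cKO and control cells by edgeR's test of the difference (adjusted p under 0.05), out of 248 genes in the whole table. Given as the cKO minus the control log2 change, the difference was positive for genes that fell in controls and in cKO cells fell less, did not pass the test (Mycn) or rose (Crym): Crym (4.17), Ntsr2 (3.28), C1ql1 (2.74), Rasgrf1 (2.37), Mfng (2.33), Sfrp2 (2.29), Grik1 (1.63), Slit1 (1.53), Cspg5 (1.35), Mycn (1.20), Ccnd1 (1.03) and Efnb3 (0.80). It was negative for genes that rose in controls and in cKO cells rose less or did not pass the test (Zfp488): C1qtnf1 (-3.53), Clcf1 (-3.09), Cdkn1a (-1.96), Zfp488 (-1.53), Cnksr3 (-1.43), Col11a1 (-1.30), Gpd1 (-1.24) and Ccng1 (-1.09). Socs2, which rose in controls, rose more in cKO cells (1.24), and Gjb1, which fell in controls, fell further (-3.10). Crym, Ntsr2, C1qtnf1, Clcf1 and Gjb1 are among the genes named for the size of this difference, so their values are not independent of that choice. The others were named for their change in controls or as members of gene lists. The OPC groups of the 2 genotypes differ in their mix of postnatal days.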

How the results depend on the processing

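The counts of genes over 2-fold stayed within 1.5 times their value in every setting tried. The count of genes higher in iOLs, 2846, was 1862 with only the 4 control libraries in the fit and 1712 at an adjusted p under 0.01, and ran from 1784 to 3221 when 1 library was left out; the count of genes lower, 3424, ran from 2256 to 4015. No scaling moved the share of higher genes among those called by more than 10 percentage points. The count for the difference between genotypes was unstable: 128 higher and 120 lower became 364 and 459 with DESeq2, 47 and 46 with limma voom, 676 and 526 with the postnatal day as a term, 0 and 1 at an adjusted p under 0.01, and from 0 to 1118 and 2 to 1038 when 1 library was left out. The cause was not tested. The depth of 17417529 to 19680398 counts limited the genes of a few CPM, and 2 libraries a group limited all.

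Replicate numbers were not used as pairs. The deviations of same-numbered libraries from their group means correlated at 0.043. With 2 libraries a group these deviations mirror each other, so this is a single value and cannot show whether libraries were paired. With the number as a replicate block the fit called 3067 genes higher and 3606 lower with 9 libraries, 2278 and 2826 with the 4 control libraries, and 479 and 570 for the difference between genotypes. In the blocked fit of 4 control libraries Mbp was at 0.0035.

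Log2 changes that took the opposite sign in some setting were those of uncalled genes and of Lars2 and Mir6236. Leaving out 1 library gave -0.82 to 0.81 for Mbp, -0.34 to 1.89 for Mag, -1.68 to 0.57 for Mog, -1.10 to 0.078 for Aldh1l1, -0.28 to 1.69 for Aqp4, -0.48 to 0.21 for Vcan, -0.088 to 0.0084 for Gria3, -0.023 to 0.14 for Lhfpl3, -0.43 to 0.38 for Ccnd2, -0.24 to 0.37 for Axin2, -0.18 to 0.55 for Notch1, -0.12 to 0.070 for Thra, -0.95 to 0.20 for Eng, -0.15 to 0.22 for Eed, -4.15 to 0.97 for Lars2 and -5.07 to 1.36 for Mir6236. With the postnatal day as a term the values were 0.74 for Mbp, 0.53 for Mog, -0.13 for Aqp4, -0.13 for Axin2, 0.12 for Gria3, -0.018 for Notch1 and 0.029 for Thra. Thra was at 0.0034 with total counts and Eed at -0.00055 with upper-quartile factors.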
